A study of Mus musculus with 6 samples.

Results

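The 10 genes described here bring glucose into the cell and carry it through glycolysis to lactate. They were taken by name from the array: the glucose transporters Slc2a1 and Slc2a3, the hexokinases Hk1 and Hk2, the phosphofructokinases Pfkl and Pfkp, the aldolase Aldoa, the phosphoglycerate kinase Pgk1, the enolase Eno1 and the lactate dehydrogenase Ldha. Every gene spot whose name or accession belonged to one of them was used, which gave 22 of the array's 41174 gene probes and 10 of the 21341 genes tested. They were followed in 2 lines of S49, cells of a mouse T lymphoma grown in suspension. MR 4-25, a line called Mannitol Recovered, was set against Neo, the parental line, to ask whether expression of these genes differs between them. Each line had 3 samples, each with 1 single-dye Agilent array of Cy3-labelled copies of 500 ng of total RNA. All 6 samples were untreated, and both lines grew in RPMI-1640 supplemented with heat-inactivated FCS (10%), glutamine (4.8 mM), penicillin and streptomycin under 7% CO2. One line stands for each condition, so recovery from mannitol cannot be told apart from whatever else sets the 2 lines apart. Nothing in the labels says that replicates were separate cultures, so the p-values cover only the spread among these samples, and that spread may be technical.

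Glucose enters lymphocytes through facilitative carriers of the SLC2 family, is trapped in the cell by hexokinase and is committed to glycolysis by phosphofructokinase. Aldolase splits the sugar, phosphoglycerate kinase and enolase act on the resulting phosphates, and lactate dehydrogenase turns pyruvate into lactate while restoring NAD+. Dividing T cells and lymphomas are known for high glucose uptake and lactate release, and several of these genes are known targets of the hypoxia-inducible factor HIF-1 and of Myc.

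The processed signal is a background-corrected brightness in intensity units. Its 75th percentile over gene spots was 872, 912 and 521 on the MR 4-25 arrays and 988, 844 and 917 on the Neo arrays, in replicate order, so the array of MR 4-25 replicate 3 was the dimmest. Slide 1 carried replicates 1 and 2 of both lines, and slide 2 carried replicate 3 of both. Relative signals below are the signal divided by that percentile of the same array, and log2 differences are MR 4-25 minus Neo on that scale. A probe's brightness depends on its sequence, so no probe's level is set against that of another. All 12 T lymphocyte markers looked at (Cd3d, Thy1, Lck and others) were well above background on all 6 arrays, and of these Cd247, the CD3 zeta chain, fell in MR 4-25 (log2 difference −4.06, limma adjusted p = 0.0272). The other 11 did not pass, and of the 12 differences 4 were positive, up to 1.04 for Cd2, and 8 were negative, with a median of −0.13. Summed over the 12 markers, the signal before scaling was 150646 to 276423 in MR 4-25 and 283150 to 335027 in Neo. The lowest sum was that of MR 4-25 replicate 3, the dimmest array. All sums of marker signals given here are unscaled. The summed signals of 23 measured B lymphocyte, myeloid, erythroid, platelet, fibroblast and endothelial markers were at most 2086 for any cell type on any array, and Blnk, a B cell adaptor, fell (log2 difference −1.90, limma adjusted p = 0.0408).

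Of the 10 genes, 0 passed the test between lines (limma, adjusted p under 0.05 over all genes), and 3 had an unadjusted p under 0.05. Over all genes, 1.23% passed, 0.675% higher and 0.558% lower in MR 4-25, so a count of 0 among 10 genes lies near the background and is no result about the group. With replicate numbers as a block, 1 of the 21341 genes passed, against 263 without it. The 3 genes Slc2a3, Aldoa and Pgk1 were higher on every MR 4-25 array than on any Neo array, and 0 genes were lower in that way. Over all genes 11.2% were higher without overlap and 13.1% lower. The differences of the 10 genes had a median of 0.20, against 0.01 for all genes tested. On slide 1 the median was 0.11 and on slide 2 it was 0.41, against −0.02 and 0.09 for all genes. Of the 10 differences 7 were positive, where 50.6% of all genes were. The normexp background correction moved the median of all genes to 0.34, and only Slc2a1 and Slc2a3 lay above that median. As fitted with normexp, 5 of the 10 were positive and their median was 0.05, so the 10 genes did not share the upward move. In bulk RNA, fewer cells of a type and less RNA per cell cannot be told apart.

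**Figure D1:**
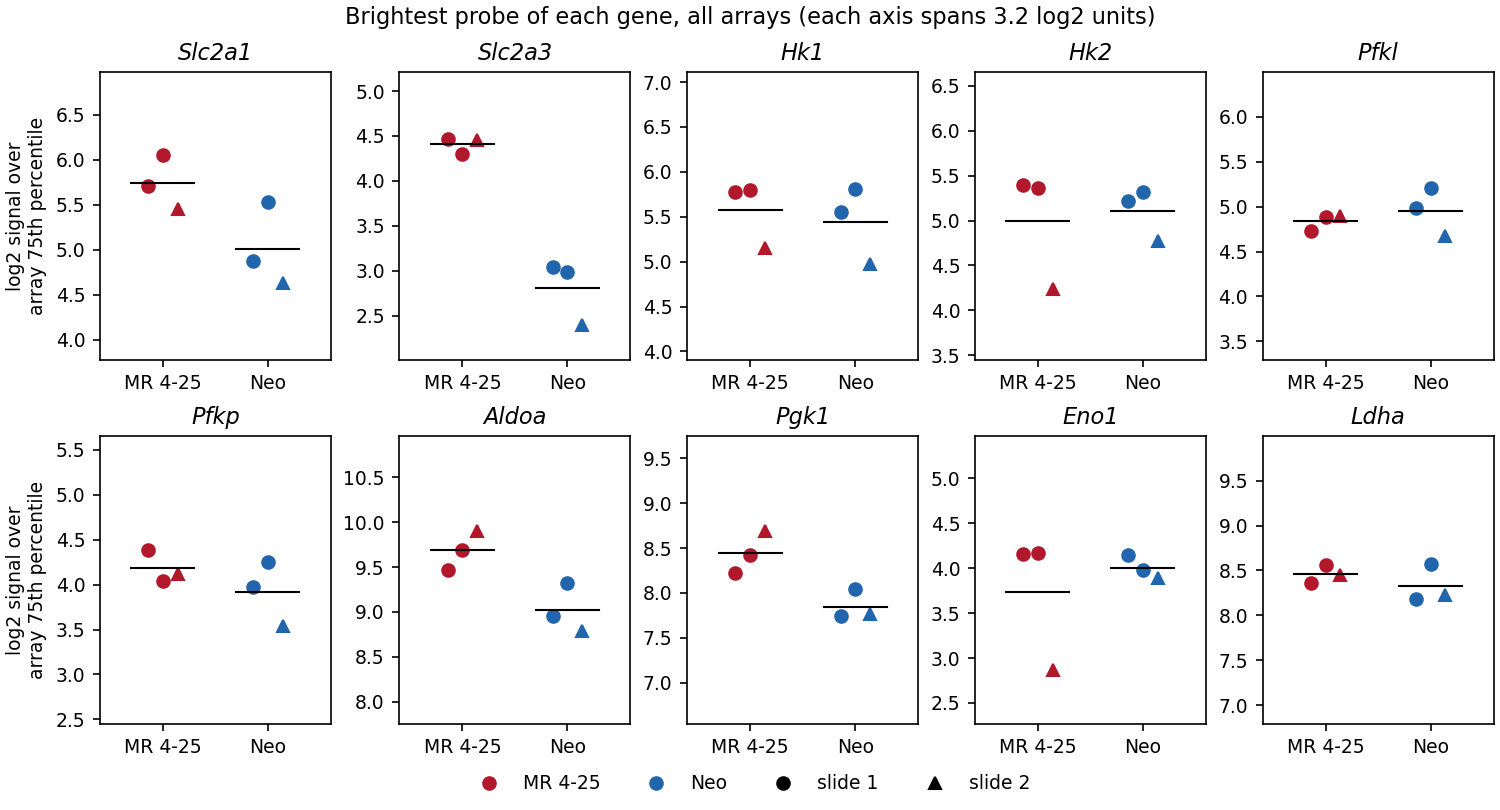
Signal of the brightest probe of each gene on each array, as log2 of the signal over the array's 75th percentile, with MR 4-25 in red, Neo in blue, circles for slide 1, triangles for slide 2 and a line at the mean of 3 arrays. Slc2a3 shows the widest gap between lines, at means of 4.41 and 2.81, while Hk2 and Eno1 each have 1 low point, MR 4-25 replicate 3.

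Slc2a3 encodes GLUT3, a high-affinity glucose carrier. Its brightest probe read a relative signal of 22.2, 19.7 and 21.9 on the MR 4-25 arrays, against 8.23, 7.94 and 5.26 on the Neo arrays. The lines did not overlap, the 3 MR 4-25 values lay close together, and the lowest Neo value was that of replicate 3. The log2 mean was 4.41 ± 0.09 in MR 4-25 and 2.81 ± 0.36 in Neo (SD, n = 3 each). That is a difference of 1.60 ± 0.23 (SE), or 3.03-fold, with a 95% interval of 1.03 to 2.17 and a limma adjusted p of 0.0514, just short of the threshold. It was 1.37 on slide 1 and 2.06 on slide 2. Adjusted over all 30965 probes instead, of which 1.3% passed, the same probe had an adjusted p of 0.0489. It also passed with quantile normalization, with slide as a block and among genes detected on all 6 arrays (adjusted p = 0.0440, 0.0469 and 0.0207), and it did not pass in the other 13 alternatives, where the adjusted p reached 0.685. With normexp, the difference was 1.38, which is 1.04 above that setting's median of all genes.

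The array holds 3 probes named Slc2a3, and they did not read alike. The first 30 of 60 bases of each are shown, in lower case and 5′ to 3′, because the value of the gene rests on which probe is read.
A_52_P354744: gtgcttacacatttcagaccctttaggcaa
A_52_P371514: cagtactgattagtactaactagcccttaa
A_52_P283862: tgagcgtcatctccgtgatagctttgtgca
The array's annotation, on build mm7, places the first at chr6:122764878-122764937 and the second at chr6:122774576-122774635, both on the minus strand. It places the third on another chromosome, at chr17:81748170-81748230, although the probe carries the same gene name. Only the first probe was well above background on all 6 arrays. The second read 24.6, 17.5 and 4.15 intensity units in MR 4-25 and 18.1, 14.3 and 18.6 in Neo, and was well above background on 3 of 6 arrays. The third read 30.0, 13.6 and 4.15 units in MR 4-25 and 21.4, 21.3 and 2.67 in Neo, also well above background on 3 of 6. Their differences, −0.18 ± 0.49 and 0.45 ± 1.02 (SE), lay within their errors. Averaging the 3 probes gave 0.63 for the gene.

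Slc2a1 encodes GLUT1, the carrier of basal glucose uptake in most cells. It has 1 probe, at chr4:118513698-118513757 on the plus strand of mm7, which read a relative signal of 52.2, 66.7 and 43.8 in MR 4-25, against 29.4, 46.3 and 24.7 in Neo. The lines overlapped, because Neo replicate 2 lay above MR 4-25 replicate 3. The difference was 0.73 ± 0.31 (SE), with a 95% interval of −0.05 to 1.51 and a limma adjusted p of 0.407, and it was 0.68 on slide 1 and 0.83 on slide 2. Within each array the log2 signal of Slc2a3 minus that of Slc2a1 was higher by 0.87 in MR 4-25 than in Neo, by 0.69 on slide 1 and 1.23 on slide 2. The arrays of the lines did not overlap in this measure, which does not depend on the scaling of an array. The exact two-sided permutation test gave p = 0.1, the smallest that 3 against 3 arrays allow (0.15 adjusted over 3 gene pairs). With the mean over probes, the measure turned to −0.10.

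Hexokinase phosphorylates glucose, and Hk1 and Hk2 are the forms bound to mitochondria. Hk1 has 6 probes spread over 89263 bases of chromosome 10. The brightest read a relative signal of 54.7, 55.6 and 35.5 in MR 4-25 and 46.8, 56.2 and 31.4 in Neo. The lines overlapped, and replicate 3 was the lowest array of each. The difference was 0.13 ± 0.31 (SE; 95% interval −0.66 to 0.92, limma adjusted p = 0.906). The other 5 Hk1 probes, which carry the same gene name and are not replicates, differed by 0.15 to 0.71, and 4 of these differences were 0.21 or less. The exception, A_52_P9337, read 85.4, 85.7 and 146 intensity units in MR 4-25 and 74.1, 82.1 and 74.8 in Neo, and its difference was 0.17 on slide 1 and 1.78 on slide 2.

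Hk2, the form best known from tumours and insulin-responsive tissue, read a relative signal of 42.1, 41.3 and 18.8 in MR 4-25 and 37.1, 39.9 and 27.4 in Neo. On slide 1 both MR 4-25 arrays were above both Neo arrays, while on slide 2 the order was the other way. The difference was −0.10 ± 0.38 (SE; 95% interval −1.07 to 0.87, limma adjusted p = 0.939), being 0.12 on slide 1 and −0.54 on slide 2. The within-array measure of Hk2 minus Hk1 was −0.23 between lines (exact permutation p = 0.4, adjusted 0.4), with 0.01 on slide 1 and −0.72 on slide 2.

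**Figure D2:**
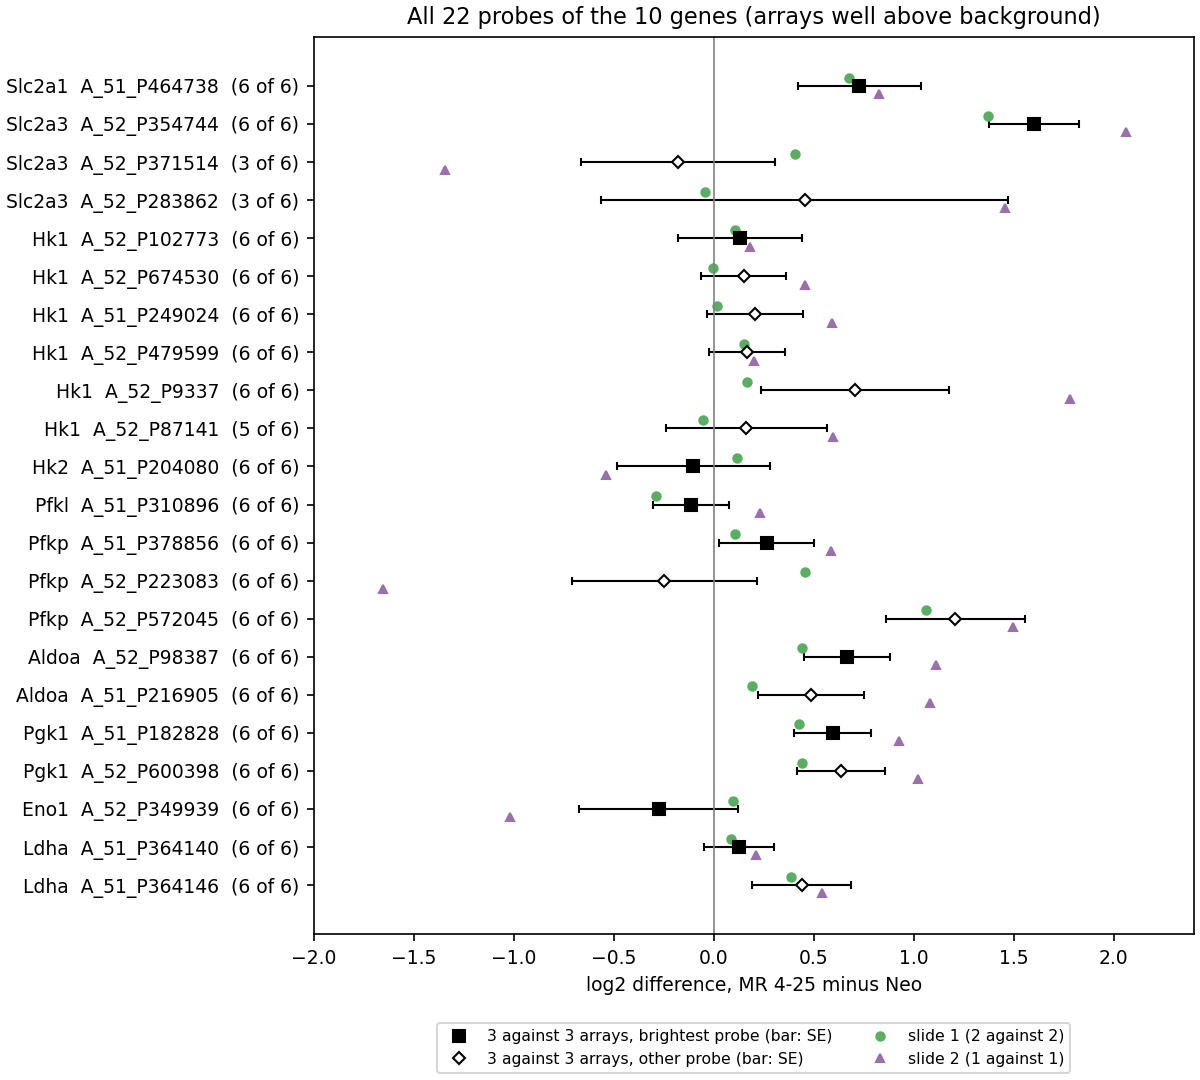
Log2 difference (MR 4-25 minus Neo) of each of the 22 probes, with squares for the brightest probe of a gene, diamonds for other probes, bars for the SE, and green and purple marks for the differences on slide 1 and slide 2. The number in brackets is how many of 6 arrays were well above background, and the slides disagree most for both probes detected on 3 arrays and for A_52_P9337, A_52_P223083 and Eno1.

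Phosphofructokinase makes fructose 1,6-bisphosphate, the committed step of glycolysis, from liver-type (Pfkl) and platelet-type (Pfkp) subunits among others. Pfkl read a relative signal of 26.5, 29.6 and 29.9 in MR 4-25 and 31.7, 36.9 and 25.5 in Neo. The lines overlapped through Neo replicate 3, and the difference was −0.11 ± 0.19 (SE; 95% interval −0.60 to 0.37, limma adjusted p = 0.862), being −0.29 on slide 1 and 0.23 on slide 2. Pfkp, on its brightest probe, read 20.9, 16.5 and 17.4 in MR 4-25 and 15.7, 19.0 and 11.6 in Neo. The lines overlapped there too, at a difference of 0.26 ± 0.24 (95% interval −0.34 to 0.87, limma adjusted p = 0.710). The within-array measure of Pfkp minus Pfkl was higher by 0.38 in MR 4-25, by 0.39 on slide 1 and 0.35 on slide 2, with no overlap between the lines (exact permutation p = 0.1, the smallest possible, adjusted 0.15). This measure lay between 0.22 and 0.52 in the 11 alternatives in which it was computed.

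The 3 Pfkp probes gave different pictures of the gene, so bases 31 to 60 of each are shown, with AATAAA, the common polyadenylation signal, in capitals.
A_51_P378856: aaaatttgttagcgatgattccatttgtgt
A_52_P223083: catcacaaagagcttttcacagtgaaacat
A_52_P572045: tttgccagtcAATAAAcacctttggttggt
All lie on the minus strand of chromosome 13 in mm7, at chr13:6475782-6477936 (wider than the probe itself), chr13:6482360-6482419 and chr13:6473188-6473247. Of the 3, only A_52_P572045 holds AATAAA in the bases shown. It read 146, 206 and 189 intensity units in MR 4-25, against 80.8, 89.9 and 118 in Neo, with no overlap. Its difference was 1.21 ± 0.35 (SE), with 1.06 on slide 1 and 1.50 on slide 2 (limma adjusted p = 0.217 over all probes). A_52_P223083 read 1598, 1398 and 472 units in MR 4-25 and 1335, 934 and 2612 in Neo, a difference of −0.25 ± 0.46 whose sign was that of slide 2 alone (0.45 on slide 1, −1.65 on slide 2).

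Aldoa, the aldolase of muscle and of most dividing cells, read a relative signal of 709, 827 and 958 in MR 4-25, against 496, 641 and 443 in Neo. The lines did not overlap, and the highest value was that of the dimmest array, MR 4-25 replicate 3. The difference was 0.66 ± 0.22 (SE), or 1.59-fold, with a 95% interval of 0.12 to 1.21 and a limma adjusted p of 0.282, and it was 0.44 on slide 1 and 1.11 on slide 2. The spot was saturated on MR 4-25 replicates 1 and 2, so its values there may be too low. The second probe read 564, 513 and 690 in MR 4-25 and 387, 573 and 327 in Neo, so the lines overlapped, at a difference of 0.49 ± 0.27. The 2 Aldoa probes share a run of 42 bases apart from 3 extra bases in the brighter one, in capitals here. These probes are therefore not independent.
A_52_P98387, bases 13 to 42: catcactcttgctgcTGCcctcgtgtgcgg
A_51_P216905, bases 31 to 60: catcactcttgctgccctcgtgtgcggtgt
The array's annotation places the first at chr7:122891843-122891902 on the minus strand of mm7. It places the second at chr7:122891645-122891659 on the same strand. That interval is narrower than the probe itself and does not overlap the first, although the sequences share bases.

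Pgk1, which makes the first ATP of the pathway, was spotted 10 times on each array. With outlier spots left out, the log2 SD between its spots was 0.03 to 0.19. The value of 0.03 was that of MR 4-25 replicate 3, from 8 spots, while all 10 spots there read 174258 to 231063 units. Pgk1 read a relative signal of 298, 342 and 413 in MR 4-25, against 214, 263 and 217 in Neo, with no overlap and again the highest value on MR 4-25 replicate 3. The difference was 0.59 ± 0.19 (SE), or 1.51-fold, with a 95% interval of 0.10 to 1.09 and a limma adjusted p of 0.284. It was 0.43 on slide 1 and 0.93 on slide 2. The second probe differed by 0.63 ± 0.22, with 0.44 and 1.02 on the slides. Its 60 bases start 22 bases further along the X chromosome and share 38 bases with the first probe, part of which is in capitals, so the probes are not independent.
A_51_P182828, bases 8 to 37: tcaggatttgtctgtGTTCTTCAAGATCCC
A_52_P600398, bases 24 to 53: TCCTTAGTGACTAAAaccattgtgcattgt
In mm7 they lie on the plus strand at chrX:101530787-101530846 and chrX:101530809-101530868.

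The unscaled signals bear on Aldoa and Pgk1, whose spots were bright. Aldoa read 618224, 753720 and 498942 intensity units in MR 4-25 and 490295, 541163 and 406592 in Neo. Pgk1 read 259495, 311644 and 214965 units in MR 4-25 and 211078, 222414 and 198987 in Neo. Before scaling, therefore, MR 4-25 replicate 3 was the lowest MR 4-25 array for both genes and was below Neo replicate 2, of the other slide, for both. Within each slide, both genes were higher in MR 4-25 than in Neo before scaling, without overlap on slide 1 and with 1 array of each line on slide 2. With quantile normalization, the differences were 0.33 for Aldoa and 0.39 for Pgk1 (limma adjusted p = 0.436 and 0.311). With normexp they were 0.33 and 0.34 as fitted. That setting's median of all genes was 0.34, and Aldoa and Pgk1 lay −0.01 and −0.00 from it. Both genes moved down with normexp while that median moved up, and neither passed as fitted (limma adjusted p = 0.518 for both). Whether the fitted value or the distance from that median is the better measure of the lines was not tested. The saturated Aldoa spots were both on slide 1, and no Pgk1 value was saturated. The part that the dim array plays in the slide 2 differences was not tested.

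**Figure D3:**
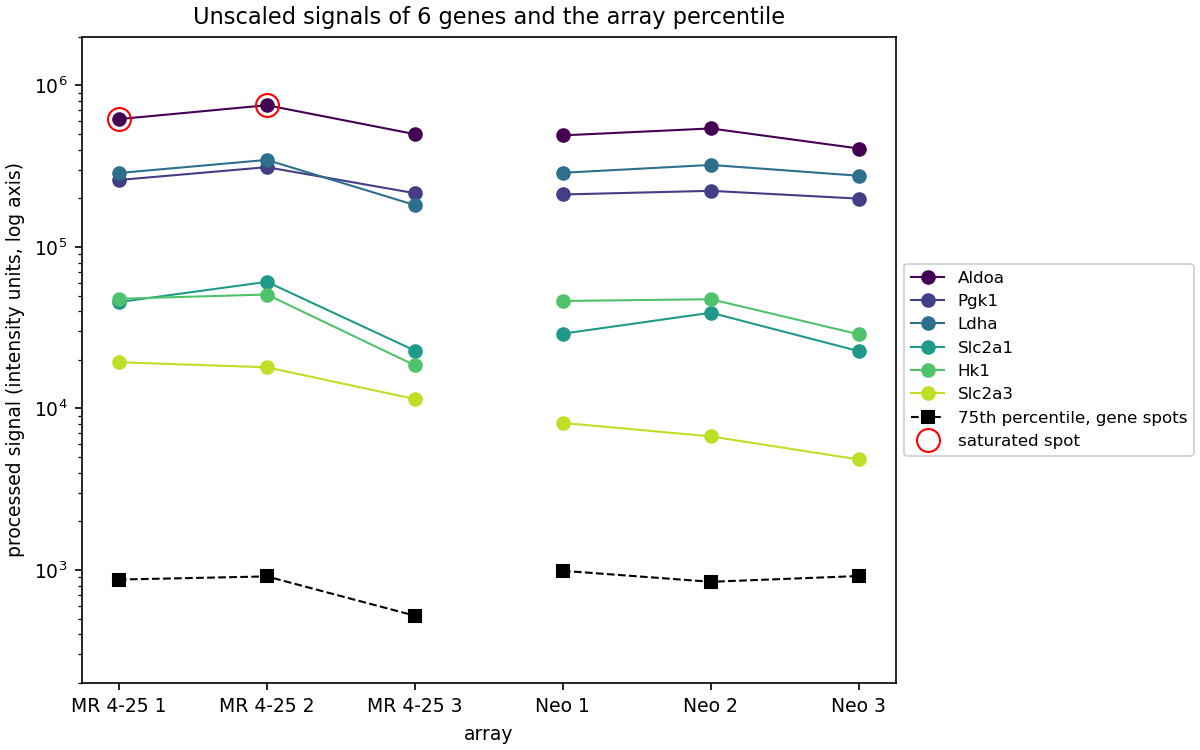
Processed signal before scaling (intensity units, log axis) of 6 genes on each array, with the 75th percentile of gene spots as a dashed line and saturated Aldoa spots circled. Between MR 4-25 replicates 2 and 3 the percentile differs by a larger factor than the Pgk1 signal does, and the Slc2a3 signal of every MR 4-25 array lies above that of every Neo array.

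Eno1, the enolase of most tissues, read a relative signal of 17.8, 18.0 and 7.30 in MR 4-25 and 17.8, 15.8 and 14.8 in Neo. The 2 MR 4-25 arrays of slide 1 lay at or above the Neo arrays, and MR 4-25 replicate 3 lay below all others. The difference was −0.28 ± 0.40 (SE; 95% interval −1.29 to 0.74, limma adjusted p = 0.834), being 0.10 on slide 1 and −1.02 on slide 2. The array lists the near-identical Eno1b for the same probe, so the signal cannot be assigned to Eno1 alone.

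Ldha, the subunit of lactate dehydrogenase that favours lactate, read a relative signal of 329, 379 and 349 in MR 4-25 and 291, 381 and 301 in Neo. The lines overlapped, and Neo replicate 2 gave the highest value of all. The difference was 0.13 ± 0.18 (SE; 95% interval −0.32 to 0.57, limma adjusted p = 0.821), and it turned to −0.10 with quantile normalization and −0.14 with normexp. The second Ldha probe differed by 0.44 ± 0.25, with the 3 MR 4-25 values at 187, 324 and 238 and the Neo values at 178, 199 and 163, which overlapped.

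**Figure D4:**
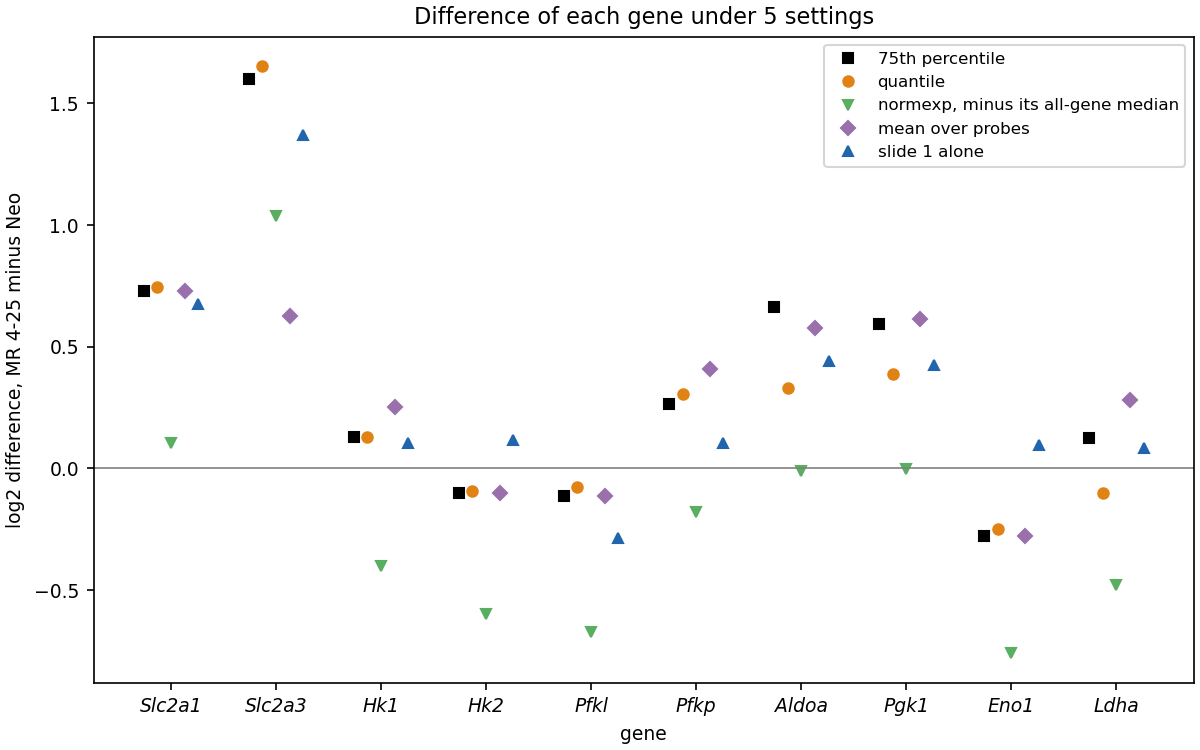
Log2 difference (MR 4-25 minus Neo) of each gene under 5 settings, with the normexp values drawn relative to that setting's median of all genes. Slc2a3 and Slc2a1 are above 0 in all 5, while Hk2 and Eno1 change sign on slide 1 alone. Aldoa and Pgk1 stand near 0 with normexp drawn in this way, though they are positive as fitted (0.33 and 0.34).

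Promoters were read from RefSeq (GRCm38.p6), which matched 9 of the 10 genes with 15 windows of 250 bases before to 50 after a start, some of them overlapping. Letters of the HIF-1 motif, ACGTG and GCGTG, were searched on both strands. ACGTG was in 7 of 15 windows and GCGTG in 9, against 19.62% and 32.39% of all 32851 windows in the table, and 6 of 9 genes held each. Such a match is a description, not a site. The 250 bases before the start are printed for Pgk1, whose arrays did not overlap, and Ldha, whose arrays did, with ACGTG or its reverse complement in capitals (both at once in CACGTG, the Myc E-box).
Pgk1, chrX:106186850-106187099, plus strand: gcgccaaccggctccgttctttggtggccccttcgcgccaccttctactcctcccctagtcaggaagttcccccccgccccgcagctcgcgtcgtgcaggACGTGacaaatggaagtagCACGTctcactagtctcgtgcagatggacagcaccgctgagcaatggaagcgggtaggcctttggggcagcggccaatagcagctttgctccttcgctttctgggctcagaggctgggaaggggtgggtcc
Ldha, chr7:46845554-46845803, plus strand: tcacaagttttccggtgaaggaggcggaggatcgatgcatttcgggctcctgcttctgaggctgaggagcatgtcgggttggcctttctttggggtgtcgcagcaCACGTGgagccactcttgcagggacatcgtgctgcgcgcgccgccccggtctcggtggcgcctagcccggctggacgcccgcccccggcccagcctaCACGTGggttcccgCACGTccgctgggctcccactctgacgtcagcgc
Counted over both strands, the printed Ldha stretch has 5 ACGTG matches, among them both strands of 2 CACGTG, and that of Pgk1 has 2. The Ldha window with the most ACGTG matches was chosen for printing. The other Ldha window, chr7:46846832-46847131, has 0 ACGTG and 0 CACGTG matches.

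The other genes of the pathway were read from lists. Among 17 measured genes of other glycolytic enzymes, 1 rose, 0 fell and 16 did not pass, with a median difference of 0.03. The one that rose was Pgam2, the muscle form of phosphoglycerate mutase, which acts between Pgk1 and Eno1. It read a relative signal of 1.16, 1.69 and 1.41 in MR 4-25, against 0.448, 0.495 and 0.360 in Neo, with no overlap. The difference was 1.71 ± 0.22 (SE), or 3.26-fold (limma adjusted p = 0.0408), and it stood at 1.57 on slide 1 and 1.97 on slide 2. This call was lost in 11 of 16 alternatives, including the replicate block (adjusted p = 0.145) and the omission of any 1 of the 6 arrays, and the adjusted p ranged from 0.0165 to 0.208. In the same list the largest differences not past the test among genes detected on all arrays were 0.65 for Gapdhs, the sperm form of glyceraldehyde phosphate dehydrogenase, and −0.27 for Pfkm, the muscle phosphofructokinase (limma adjusted p = 0.719 and 0.882). Hk3, another hexokinase, was well above background on 1 of 3 MR 4-25 and 3 of 3 Neo arrays and stood at −3.63 ± 0.91 (SE; limma adjusted p = 0.185). It passed the filter through the Neo arrays, where it was higher. Its relative signal in MR 4-25 was 0.0195, 0.00431 and 0.0143, close to background, so the size of the difference is uncertain. Gapdh, Eno2 and Eno1b were among 5 enzymes of the list not analysed here.

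The remaining 7 lists held 0 genes past the test in either direction. With normexp, their medians lay between −0.53 and 0.04 relative to that setting's median of all genes. The 9 other glucose and hexose carriers had a median difference of 0.15, and the ends of their range among well-detected genes were Slc50a1 at 0.58 and Slc2a9, a urate and fructose carrier, at −0.27 (limma adjusted p = 0.330 and 0.762). The 17 regulators of glycolytic flux had a median of 0.32, with 0.22 on slide 1 and 0.05 on slide 2. Among them, Pdk2, an inhibitory kinase of pyruvate dehydrogenase, stood at 0.87 and Dld, a subunit of that complex, at −0.43 (limma adjusted p = 0.610 and 0.522). In lactate and pyruvate transport the median of 9 genes was 0.48, with 0.09 on slide 1 and 0.95 on slide 2. Bsg, the chaperone of the lactate carriers, stood at 0.77 with no overlap between lines (adjusted p = 0.256), and Slc16a3, the lactate exporter MCT4, at −0.50 ± 1.34 (SE; adjusted p = 0.917).

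The 11 pentose phosphate genes had a median of −0.09. G6pdx, the entry enzyme of that pathway, stood at 0.64 and Prps2, which makes phosphoribosyl pyrophosphate, at −0.79, neither with overlap between lines (limma adjusted p = 0.255 and 0.316). The 15 genes of gluconeogenesis and glycogen had a median of 0.22, and among genes detected on all arrays the ends were the glycogen branching enzyme Gbe1 at 0.77 and the gluconeogenic enzyme Pck1 at −0.17 (adjusted p = 0.231 and 0.884). Fbp1, a fructose bisphosphatase of gluconeogenesis, was well above background on 2 of 3 MR 4-25 and 3 of 3 Neo arrays and stood at −2.10 ± 1.15 (SE; adjusted p = 0.541). Its difference was −0.88 on slide 1 and −4.54 on slide 2. Of 26 genes of the HIF pathway and hypoxia targets outside glycolysis, 21 differences were positive and 6 genes were higher without overlap, where over all genes 50.6% and 11.2% were, and the median was 0.31, with 0.32 and 0.27 on the slides. With normexp, 11 of the 26 lay above that setting's median of all genes, and the median of the list was −0.10 relative to it. Adm, the peptide adrenomedullin, read a relative signal of 2.71, 7.27 and 7.47 in MR 4-25, against 0.454, 1.23 and 1.99 in Neo, a difference of 2.35 ± 0.70 (SE; adjusted p = 0.242). Hif3a stood at −0.92 (adjusted p = 0.701), with 1 low array, MR 4-25 replicate 3. The 24 Myc, Akt-mTOR and glucose-sensing regulators had a median of −0.15, with the transcription factor Foxk2 at 0.85 and Stk11, the kinase LKB1 upstream of AMPK, at −0.81 (adjusted p = 0.149 and 0.0975), neither with overlap between lines. Stk11 passed in 1 of 16 alternatives, over which its limma adjusted p ranged from 0.0365 to 0.433.

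**Figure D5:**
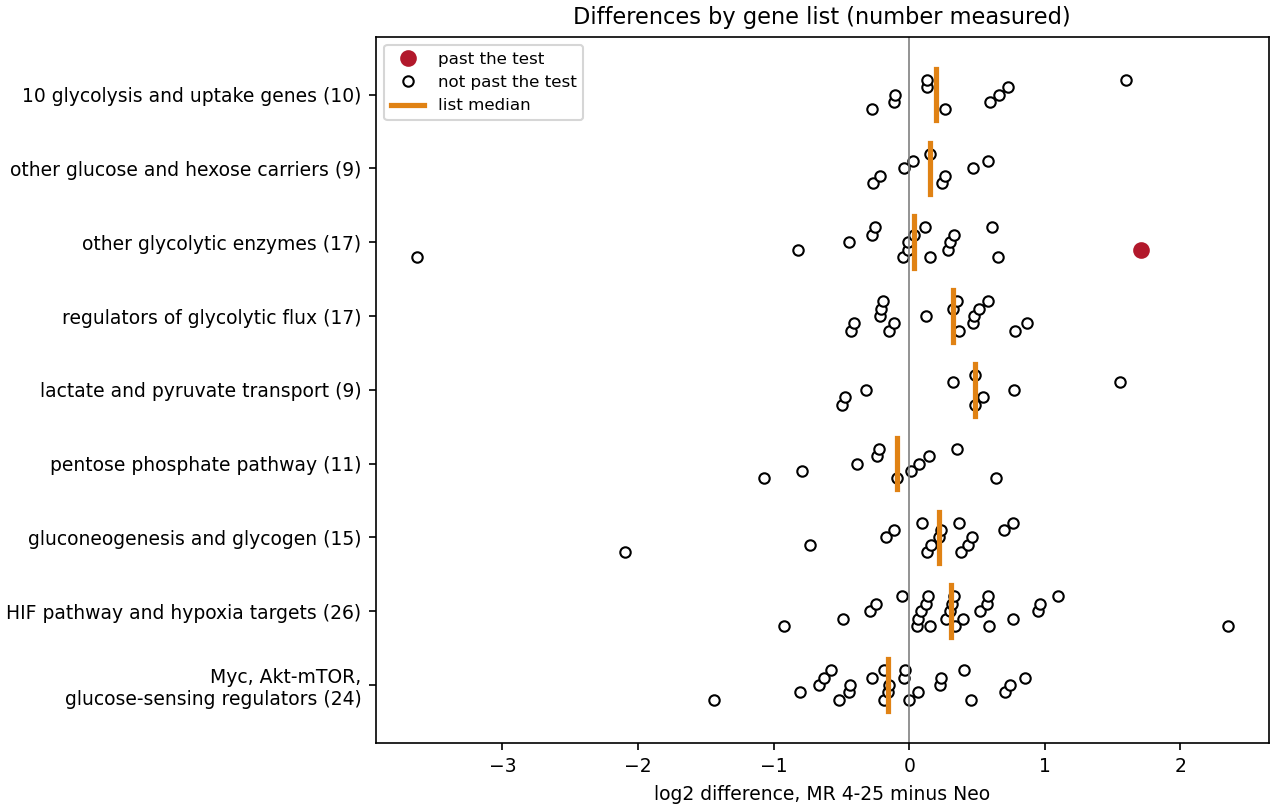
Log2 difference (MR 4-25 minus Neo) of every measured gene in the 10 genes and 8 pathway lists, with list medians in orange and genes past the limma test filled red. Pgam2 is the single red point, and list medians lie between −0.15 and 0.48.

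Among the genes whose centred profile over the 6 arrays was nearest to that of Slc2a3 were Ctso and Acot1, at mean absolute log2 distances of 0.12 and 0.13. Their differences were 1.40 and 1.47 (limma adjusted p = 0.0246 and 0.0862). With the replicate block the adjusted p was 0.149 for Ctso and 0.172 for Acot1, and the Ctso call was lost in 8 of 16 alternatives. They were chosen for this likeness, so their differences are a description.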

How the data were processed

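The authors deposited scanner output whose processed Cy3 signals are background-corrected intensity values. Per the file headers, it was written by version 9.5.3.1 of Agilent Feature Extraction, while the submitters' processing notes give 9.5. The deposited value table equals the processed signal in all 270108 cells compared, so it is neither logged nor centred. Its column medians were 89.9, 85.4 and 50.2 for MR 4-25 and 88.3, 90.2 and 86.4 for Neo. Scanner dimming, labelling and spot saturation can all act on these values, and the number of arrays limits the precision.

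Control spots (1639 of each array) and outlier spots were left out, and spots of the same probe were averaged as log2 signals; 34 of 41174 probes had only outlier spots on some array. Each array was scaled by subtracting log2 of its 75th percentile over 43379 gene spots. Probes well above background on at least 3 arrays were kept (30965), and the brightest probe stood for a gene. Names were matched to RefSeq by accession for 22951 probes and by synonym for 3109; 6659 file names were current symbols and 8455 were not. Probe positions come from the array's annotation on mm7, and exon or UTR positions were not analysed here. All 22 probes passed the filter, and all 10 brightest probes were detected on all 6 arrays.

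The lines were compared in limma 3.58.1 (R 4.3.3, the data.table package at version 1.17.8, jsonlite 2.0.0; lmFit and eBayes, Benjamini-Hochberg over 21341 genes, threshold 0.05). The code was tested on simulated data. Figures and sequences used Python 3.11.15, pandas 2.3.3 and matplotlib 3.10.9. The members, the pathway lists and the markers were chosen with earlier results of these data known. Named genes are the 10 genes, up to 3 genes per list past the test, the largest positive and negative difference per list among genes detected on all arrays and not past the test, and the 3 profiles nearest to Slc2a3. One gene of this rule is not reported here. Cd247, Cd2, Blnk, Hk3 and Fbp1 were named after their values were seen.

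Same-numbered arrays deviated together from their line means (r = 0.29, 0.21 and 0.56 across genes, all above 0.1), so a replicate block was fitted as an alternative. The main fit has no block and does not use the numbers. On slide 1, crossed pairs correlated at 0.41 and 0.38, above the same-numbered 0.29 and 0.21. Number and slide are therefore not separated, and a pairing by number is not established. Alternatives were normexp (offset 50), quantile and median scaling, other filters, the mean over probes, the value table, slide or replicate block, slide 1 alone, and each array left out. The value table equals the processed signal, so that alternative repeats the main fit and adds nothing to the counts of alternatives.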

Additional observations from a re-analysis of the deposited data

How the results depend on the processing

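Of 21341 genes 263 passed (144 higher and 119 lower in MR 4-25, 54.8% higher). The count was 80 with normexp (68.8% of them higher), 524 with the filter on all 6 arrays, 124 on slide 1 alone (49.2% higher) and 1 with the replicate block. Leaving out 1 array gave 0 to 223, with 9, 6 and 223 without MR 4-25 replicates 1, 2 and 3 and 0, 0 and 36 without Neo replicates 1, 2 and 3. The zeros are limma counts, with 1687 and 2014 genes at an unadjusted p under 0.05. Without MR 4-25 replicate 3, 41.3% of calls were higher. Of the 10 genes, 1 (Slc2a3) passed with quantile normalization, the filter on all 6 arrays and slide as a block, and 0 passed in every other alternative. Under the replicate block, Slc2a3 and Pgam2 had adjusted p = 0.172 and 0.145. The median of the 10 genes was 0.05 to 0.37 over 16 alternatives and 0.08 to 0.37 with 1 array left out. Slc2a1, Slc2a3, Pfkp, Aldoa and Pgk1 stayed positive in all 16 as fitted. The value table, the other filters and the slide and replicate blocks leave these differences as they were, so only the remaining alternatives could change a sign. Signs turned with normexp for Hk1 (−0.060), Ldha (−0.14), Slc2a9 (0.057), Pfkm (0.022) and Pck1 (0.62), and with quantile normalization for Ldha (−0.10). With the mean over probes they turned for Hif3a (0.22) and for Slc2a3 minus Slc2a1 (−0.10), into which the dim Slc2a3 probes enter. On slide 1 alone they turned for Hk2 (0.12), Eno1 (0.10), Pck1 (0.24) and Hk2 minus Hk1 (0.010). With 1 array left out, they turned for Slc16a3 (−1.89 to 0.31), Pfkm (−0.81 to 0.11), Hk2 (−0.30 to 0.28), Eno1 (−0.50 to 0.16), Slc2a9 (−0.49 to 0.0049), Pck1 (−0.35 to 0.18), Pfkl (−0.26 to 0.012) and Hk1 (−0.11 to 0.34). Apart from these constructions the cause was not tested. Slc2a3 minus Slc2a1, Hk2 minus Hk1 and Pfkp minus Pfkl lay at 0.70 to 1.09, −0.33 to −0.06 and 0.22 to 0.47 with 1 array left out. Signals of a few units over background limit the dim Slc2a3 probes, and 3 arrays per line limit all differences.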
